A study of Mus musculus with 4 samples.

Results

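The genes described here encode the machinery that holds sister chromatids together, attaches them to the spindle and delays anaphase until every chromosome is attached. They were chosen by gene name on the array: 17 names made of Cenp and 1 further letter, and 30 further names of kinetochore, checkpoint, cohesin and mitotic kinase genes, together 47 of the 27630 gene names on the array. Expression was measured in immature granulocytes, the neutrophil precursors of the marrow, sorted from male C57BL/6 mice that were miR-223 KO (2 arrays) or wild type (WT, 2 arrays). Each RNA was hybridised alone, in a single colour, to a mouse whole-genome array. The labels give neither the ages of the mice nor the way the knockout was made, and nothing in them ties the 2 arrays of a genotype to different mice. The p-values below therefore cover the variation among these 4 arrays alone, which may be technical.

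Centromeric chromatin is marked by a histone H3 variant, on which a constitutive inner complex of CENP proteins is built through the cell cycle. In mitosis this platform recruits the outer kinetochore, whose NDC80 complex grips microtubules, and an unattached kinetochore generates the checkpoint signal that restrains CDC20 and with it the anaphase-promoting complex. Once the signal ends, the inhibitor securin is destroyed, separase cleaves cohesin and the sisters part. In marrow, granulocyte precursors divide up to the myelocyte stage and then leave the cycle. Transcripts of the mitotic genes among these thus mark the dividing precursors, whereas the cohesin core is also needed outside mitosis.

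miR-223, the microRNA absent from the KO, is highly expressed in the myeloid lineage, where it represses target transcripts. Its main strand is shown with the seed, bases 2 to 8, in capitals, because that stretch decides which transcripts it pairs with (RefSeq, GRCm38.p6, chromosome X, plus strand).
mmu-miR-223-3p: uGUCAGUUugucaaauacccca
Of the 81 probes for the 47 genes, each of 60 bases, 2 held the letters that pair with seed bases 2 to 7, ACTGAC. These were further probes of Cenpp and Cenpk, and the one in Cenpk held the longer match AACTGACA. The Cenpk probe had normalised log2 signals of 0.71 and 0.71 in KO and 0.85 and 0.79 in WT, and the Cenpp probe -1.37 and -0.93 in KO and -0.76 and -0.65 in WT. Both were lower in KO on both arrays, and the other probes hold none of these letters, which says nothing about the rest of each transcript.

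Many genes of mitosis carry in their promoters a short element called the cell cycle homology region, through which they are kept silent in resting cells and turned on late in the cycle. Promoter windows of 300 bases, from 250 before the annotated start, were found in RefSeq (GRCm38.p6) for 40 of the 47 genes. On either strand, TTTGAA or TTCGAA occurred in 44.4% of the 45 windows of these genes, against 14.4% of 13627 windows of genes tested here and 19.2% of all 32851 windows. The CCAAT box, letters CCAAT on either strand, occurred in 66.7%, 37.9% and 37.4% of the same sets. The E2F motif, searched as TTTGGCGC or TTTCCCGC on either strand, occurred in 11.1%, 2.71% and 1.56%. The windows below belong to the 4 genes with the smallest p for a genotype difference among those holding the element, shown because the results below turn on these genes, and capitals mark the element.
Cdca8, chr4:124936868-124937167, minus strand: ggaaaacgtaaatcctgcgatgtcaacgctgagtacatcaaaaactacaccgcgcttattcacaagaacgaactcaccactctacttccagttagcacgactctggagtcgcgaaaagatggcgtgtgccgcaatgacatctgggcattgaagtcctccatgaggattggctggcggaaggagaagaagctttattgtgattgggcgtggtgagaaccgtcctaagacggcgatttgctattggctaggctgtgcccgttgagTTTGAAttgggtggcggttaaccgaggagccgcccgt
Plk1, chr7:122159185-122159484, plus strand: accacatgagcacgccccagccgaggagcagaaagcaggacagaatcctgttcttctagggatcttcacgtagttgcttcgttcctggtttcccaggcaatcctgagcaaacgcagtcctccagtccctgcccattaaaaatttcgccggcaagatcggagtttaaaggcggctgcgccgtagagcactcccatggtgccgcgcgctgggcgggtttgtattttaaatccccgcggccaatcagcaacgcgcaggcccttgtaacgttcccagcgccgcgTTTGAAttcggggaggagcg
Cdca5, chr19:6084847-6085146, plus strand: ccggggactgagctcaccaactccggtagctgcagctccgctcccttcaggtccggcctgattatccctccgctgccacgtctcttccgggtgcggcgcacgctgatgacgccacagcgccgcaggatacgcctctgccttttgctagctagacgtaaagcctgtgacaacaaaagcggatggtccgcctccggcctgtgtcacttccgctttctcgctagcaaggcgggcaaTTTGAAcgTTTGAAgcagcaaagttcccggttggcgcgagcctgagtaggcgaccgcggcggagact
Espl1, chr15:102296043-102296342, plus strand: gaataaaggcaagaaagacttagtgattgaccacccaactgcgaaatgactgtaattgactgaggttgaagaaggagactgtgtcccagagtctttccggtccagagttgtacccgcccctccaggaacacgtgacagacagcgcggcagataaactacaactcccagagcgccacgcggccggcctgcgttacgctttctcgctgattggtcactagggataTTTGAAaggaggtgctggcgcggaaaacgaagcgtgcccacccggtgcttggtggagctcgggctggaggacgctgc
The element begins 13 bases past the annotated start in Cdca8 and 30 bases past it in Plk1, and at -27 in Espl1. Cdca5 holds 2 copies, beginning at -17 and -9. Of the 22 matches in the windows of these 40 genes, 17 began between -30 and the end of the window. Positions were not counted in windows of other genes, so this number has no background to be judged against. A match is a string of letters and was not shown to be bound.

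**Figure D1:**
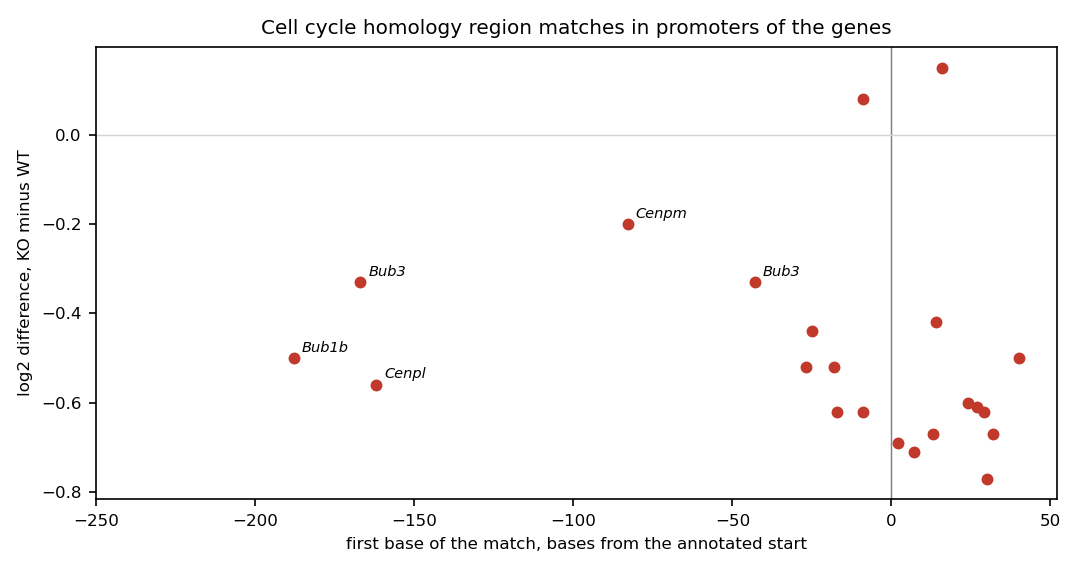
Each point is 1 match to the cell cycle homology region in a promoter window, placed by the distance of its first base from the annotated start (x axis, bases) and by the log2 difference of its gene, KO minus WT (y axis). Of the 22 matches 17 begin at -30 or later, a count not made for other genes, and the genes with matches elsewhere are named at their points.

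Transcripts of the module were lower in KO immature granulocytes. Of the 47 genes, all of which were well above background on all 4 arrays, 43 had lower means in KO (52.4% of all genes tested did) and 4 higher ones, with a median log2 difference (KO minus WT) of -0.44 against -0.02 over the 16978 genes tested. In 40 of the 47 both KO arrays lay below both WT arrays, and in 2 both lay above, whereas 30.5% of all genes tested lay below in this way and 28% above. There were 14 genes at least 1.5-fold lower in KO, a size reached by 5.85% of all genes tested. Among them were the cohesin protector Sgol2, the kinases Aurkb, Plk1, Ttk and Aurka and the kinetochore protein Cenpf.

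With limma's moderated test across all genes 0 of the 47 passed an adjusted p of 0.05, as did 0% of all genes. The smallest adjusted p was 0.0838, for Sgol2. At an unadjusted p under 0.05, 34 genes were lower in KO and 2 higher, against 12% lower and 11.8% higher over all genes tested. When limma's prior variance was allowed to follow signal intensity, 29 were called lower and 1 higher at an adjusted p under 0.05, against 4.13% and 5.45% of all genes. With 2 arrays against 2 an exact two-sided permutation test cannot go below p = 0.333, so every call rests on the spread that limma shares between genes. The result depended on how the background was corrected. With normexp fitted on all spots 28 of the 47 genes had lower means in KO. There 8 had both KO arrays below both WT arrays (38.5% of all genes), and the median was -0.09, against -0.15 over all genes. With normexp fitted without control spots 42 had lower means and 39 had both KO arrays below both WT arrays (43.1% of all genes). The median was then -0.38, against -0.08 over all genes.

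**Figure D2:**
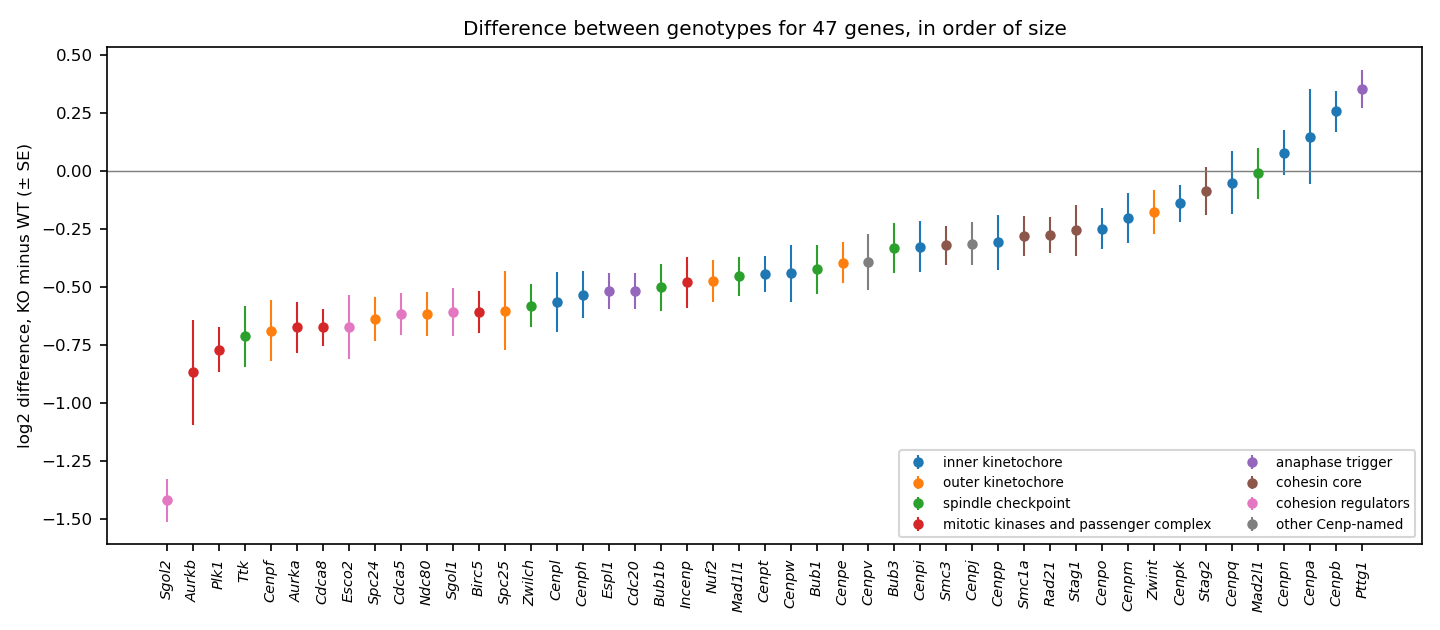
Points give the log2 difference of each of the 47 genes, KO minus WT, with its SE from limma (n = 2 arrays per genotype), in order of size and coloured by role. The row runs from -1.42 for Sgol2 to 0.35 for Pttg1, with 43 genes below 0.

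Levels below are normalised log2 signals, the log2 processed signal minus the 75th percentile of its array. Differences are KO minus WT, with n = 2 arrays per genotype and the SE from limma without the intensity trend. Each adjusted p below, and each statement that a gene passed or was called, is from limma with the intensity trend. That fit is an alternative to the main test, taken up because 0 genes passed in the main test. An SE and the adjusted p beside it are thus from different fits. As bulk RNA was measured, fewer dividing cells in the sort and less of each transcript per dividing cell cannot be told apart.

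Mitotic kinases and the chromosomal passenger complex were lower in KO without exception: 6 of 6 genes had both KO arrays below both WT arrays, and 6 passed with the intensity trend (median log2 difference -0.67). Plk1, the polo-like kinase that drives mitotic entry and many later steps, read 4.08 and 4.22 in KO and 4.89 and 4.96 in WT. That is 1.70-fold lower in KO (log2 difference -0.77 ± 0.10, adjusted p = 0.00691), and the gap between genotypes was wider than that within either. Aurka, the kinase of centrosomes and spindle poles, read 3.50 and 3.62 in KO and 4.32 and 4.14 in WT (difference -0.67 ± 0.11). The passenger complex places Aurora B at centromeres to correct faulty attachments. Its subunit Cdca8, or borealin, read 4.92 and 4.91 in KO against 5.56 and 5.61 in WT (-0.67 ± 0.08, adjusted p = 0.00638). Birc5, or survivin, read 5.68 and 5.79 in KO against 6.38 and 6.30 in WT (-0.61 ± 0.09), and the scaffold Incenp 5.42 and 5.50 in KO against 5.84 and 6.04 in WT (-0.48 ± 0.11). In all 3 subunits the genotypes did not overlap, with the WT arrays of Incenp the farthest apart. The kinase itself, Aurkb, was the least even, with 0.97 and 0.45 in KO and 1.72 and 1.43 in WT. Its difference was -0.87 ± 0.23, the largest SE of the 47 genes, since its KO arrays lay far apart.

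Outer kinetochore genes were lower in the same way. Of 7, all had both KO arrays below both WT arrays, 6 passed with the trend, and the median difference was -0.60. The NDC80 complex, the microtubule coupler, has 4 subunits and all were measured. Ndc80 read 0.53 and 0.64 in KO and 1.26 and 1.15 in WT (difference -0.62 ± 0.10, adjusted p = 0.0155). Spc24 read 1.60 and 1.70 in KO and 2.34 and 2.23 in WT (-0.64 ± 0.09). Both were clear of overlap by more than the distance within a genotype. Nuf2 was at 2.69 and 2.81 in KO and 3.20 and 3.23 in WT (-0.47 ± 0.09), and Spc25 at 1.64 and 1.99 in KO and 2.53 and 2.30 in WT (-0.60 ± 0.17). The distance within the KO pair was larger for Spc25 than for its partners. Cenpf, a large protein of the outer layer that is made late in the cycle, read 1.81 and 2.0 in KO against 2.70 and 2.48 in WT (-0.69 ± 0.13). Cenpe, the plus-end kinesin that brings chromosomes to the metaphase plate, differed by -0.39 ± 0.09. Zwint, which links the outer kinetochore to the checkpoint proteins, had the smallest difference of the 7 (-0.18 ± 0.09, adjusted p = 0.192) and did not pass.

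Spindle checkpoint genes numbered 7, of which 6 had both KO arrays below both WT arrays and 5 passed with the trend (median -0.45). Ttk, the kinase MPS1 that starts the checkpoint, read -2.14 and -1.88 in KO and -1.38 and -1.22 in WT, a difference of -0.71 ± 0.13 (adjusted p = 0.0342). Zwilch, a subunit of the complex that brings dynein and the MAD proteins to kinetochores, read 0.46 and 0.60 in KO and 1.11 and 1.11 in WT (-0.58 ± 0.09). Bub1b, which encodes the checkpoint effector BUBR1, read 1.08 and 1.26 in KO against 1.67 and 1.67 in WT (-0.50 ± 0.10). In all 3 both WT arrays lay above both KO arrays. Mad1l1, the kinetochore receptor for MAD2, read 1.23 and 1.21 in KO and 1.72 and 1.62 in WT (-0.45 ± 0.09). Bub1, the kinase that docks other checkpoint proteins, differed by -0.42 ± 0.11, and Bub3, the adaptor of both BUB proteins, by -0.33 ± 0.11 (adjusted p = 0.0628). Mad2l1, which encodes the diffusible inhibitor MAD2 itself, was the exception. It read 1.44 and 1.64 in KO and 1.59 and 1.51 in WT, so the genotypes overlapped (difference -0.01 ± 0.11).

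**Figure D3:**
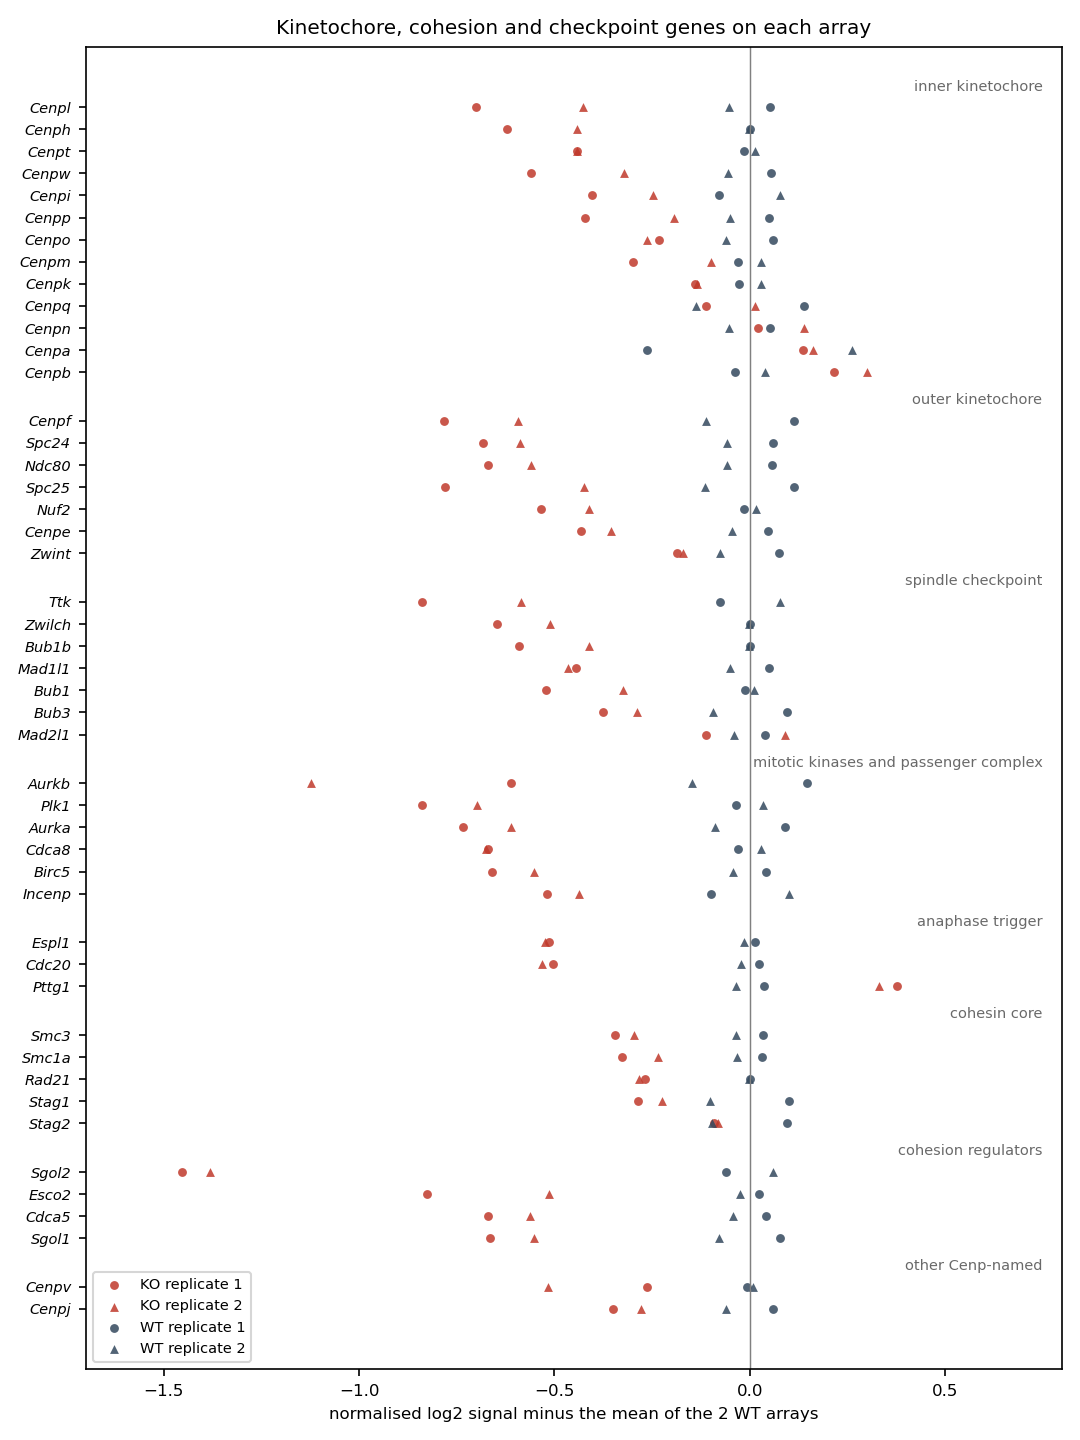
Each row is a gene, grouped by role, and the x axis is its normalised log2 signal minus the mean of the 2 WT arrays. Red marks are KO arrays and dark marks WT arrays, circles for replicate 1 and triangles for replicate 2. In 40 of the 47 rows both red marks lie left of both dark marks, and in Cenpb and Pttg1 they lie right.

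The anaphase genes went different ways. Cdc20, the activator of the anaphase-promoting complex and the checkpoint's target, read 4.50 and 4.47 in KO and 5.02 and 4.98 in WT, a difference of -0.52 ± 0.08 (adjusted p = 0.0107). Espl1, which encodes separase, the protease that cuts cohesin, read 0.83 and 0.83 in KO and 1.36 and 1.34 in WT (-0.52 ± 0.08, adjusted p = 0.0155). In both the arrays of a genotype differed by under 0.05. Pttg1, which encodes securin, the inhibitor of separase, was higher in KO, at 2.57 and 2.53 against 2.23 and 2.16 in WT. It was 1.28-fold higher (0.35 ± 0.08, adjusted p = 0.0336), the only one of the 47 genes called higher with the trend. Its single probe lies at mm9 chromosome 11, 43233801 to 43233860.

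Regulators of cohesion were lower in KO. All 4 had both KO arrays below both WT arrays, and 4 passed with the trend (median -0.64). Sgol2, or Sgo2a in RefSeq, encodes the shugoshin that recruits phosphatase to centromeres and guards their cohesin. It read 0.37 and 0.44 in KO and 1.76 and 1.88 in WT, which is 2.67-fold lower in KO (-1.42 ± 0.09, adjusted p = 0.00356). The gap was over 10 times the distance within either pair, and the next largest difference among the 47 genes was -0.87. Sgol1, the shugoshin that protects mitotic cohesion, read 2.57 and 2.68 in KO against 3.31 and 3.16 in WT (-0.61 ± 0.10). Cdca5, or sororin, which locks cohesin on replicated DNA, read 4.17 and 4.27 in KO and 4.88 and 4.79 in WT (-0.62 ± 0.09). Esco2, the acetyltransferase that establishes cohesion during replication, read -0.18 and 0.13 in KO and 0.67 and 0.62 in WT (-0.67 ± 0.14). All 3 were at least 1.5-fold lower in KO, with no overlap between genotypes.

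The cohesin core is also needed outside mitosis for chromosome folding. At the brightest probes its median was closer to 0 than those of the kinases and the outer kinetochore. The median of the inner kinetochore genes was -0.25, and none of these differences was tested. All 5 means were lower in KO, 4 of the 5 genes had both KO arrays below both WT arrays, and 2 passed with the trend (median -0.28). Smc3, one of the coiled-coil arms of the ring, read 2.59 and 2.64 in KO and 2.97 and 2.90 in WT (-0.32 ± 0.08, adjusted p = 0.0407). Smc1a, the other arm, read 5.25 and 5.34 in KO and 5.61 and 5.54 in WT (-0.28 ± 0.09). Rad21, the subunit that closes the ring and is cut by separase, read 4.87 and 4.85 in KO and 5.14 and 5.14 in WT (-0.28 ± 0.08, adjusted p = 0.0443). At these brightest probes the genotypes did not overlap in any of the 3. With the mean over all probes of a gene the difference of Rad21 was -0.60 and that of Stag1 -0.43. Stag1 and Stag2, alternative subunits that bind the ring, differed by -0.25 ± 0.11 and -0.09 ± 0.10. Stag1 read 2.52 and 2.58 in KO against 2.91 and 2.71 in WT, and neither passed. Further probes of Stag2 differed by -0.32 ± 0.10 and -0.33 ± 0.19. With normexp fitted on all spots Smc1a (0.25), Rad21 (0.23), Stag1 (0.22) and Smc3 (0.10) turned positive.

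Inner kinetochore genes were mixed. Of 13, there were 10 with lower means in KO, 9 with both KO arrays below both WT arrays and 1 with both above, and 4 passed with the trend, all lower (median -0.25). Cenpt, which with Cenpw forms a histone-like bridge to the outer kinetochore, read 1.1 and 1.1 in KO and 1.53 and 1.55 in WT (-0.44 ± 0.08, adjusted p = 0.0217). Cenpw read 1.66 and 1.89 in KO and 2.27 and 2.16 in WT (-0.44 ± 0.12). Cenph read 1.5 and 1.68 in KO and 2.12 and 2.12 in WT (-0.53 ± 0.10). Cenpl, the partner of Cenpn in reading centromeric nucleosomes, read 1.49 and 1.76 in KO and 2.24 and 2.14 in WT (-0.56 ± 0.13). Cenpi (-0.32), Cenpp (-0.31), Cenpo (-0.25), Cenpm (-0.20) and Cenpk (-0.14), which belong to the same constitutive complex, were lower on both KO arrays and did not pass. Cenpq differed by -0.05 with overlapping genotypes.

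The inner genes with higher means in KO were Cenpa, Cenpb and Cenpn. Cenpa, the centromeric histone itself, read 2.28 and 2.30 in KO and 1.88 and 2.40 in WT, so both KO values lay between those of WT (0.15 ± 0.21). Cenpb, which binds a motif of the satellite repeats, read 0.97 and 1.06 in KO and 0.72 and 0.79 in WT. It was higher on both KO arrays (0.26 ± 0.09) and did not pass (adjusted p = 0.102). Cenpn read 0.16 and 0.28 in KO and 0.20 and 0.09 in WT, an overlap (0.08 ± 0.10). Of the remaining names, Cenpj encodes a protein that builds centrioles and not kinetochores. It read 2.49 and 2.56 in KO and 2.90 and 2.78 in WT (-0.31 ± 0.09, adjusted p = 0.0547). Cenpv, a further centromere protein, read -1.30 and -1.55 in KO and -1.04 and -1.03 in WT (-0.39 ± 0.12, adjusted p = 0.108).

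Replicates of a genotype were close. Over the 47 genes the median absolute distance was 0.11 between the KO arrays and 0.10 between the WT arrays. KO replicate 1 was below KO replicate 2 in 38 of the 47 genes and was the lowest of the 4 arrays in 33, whereas WT replicate 1 was the highest in 30. The median of the 47 levels was 1.64 and 1.89 in KO and 2.24 and 2.16 in WT, while the median over all genes tested was -0.40 and -0.42 in KO and -0.44 and -0.42 in WT. Without WT replicate 1 the 34 genes lower in KO at an unadjusted p under 0.05 became 20 (8.35% of all genes).

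Several probes of a gene gave a further view of the same RNA. Of the 81 probes 78 passed the filter on dim signals, and 23 genes had more than 1 such probe. Of their 31 further probes, 28 had both KO arrays below both WT arrays and 0 had both above, with a median log2 difference of -0.44. The further probe of Sgol2 read -0.36 and -0.17 in KO and 0.76 and 0.77 in WT (-1.03 ± 0.11). Signal was thus lower in KO at both places probed, at mm9 chromosome 1, 58072517 to 58072576 and 58081712 to 58081771. The further probe of Rad21 read -0.88 and -0.82 in KO and -0.01 and 0.16 in WT (-0.93 ± 0.10), a larger difference than at the bright probe. Of the 23 genes, 4 had probes that disagreed in sign: Bub1, Cenpa, Espl1 and Mad2l1. The further probe of Bub1 read 0.65 and 0.30 in KO and 0.39 and 0.42 in WT (0.07 ± 0.15), and that of Espl1, a dim one, -3.38 and -4.91 in KO and -4.21 and -4.38 in WT (0.15 ± 0.55). The genotypes overlapped in both. The further probe of Cenpa, also dim, read -5.28 and -5.17 in KO and -4.26 and -4.26 in WT (-0.96 ± 0.09). It went the opposite way to the bright probe of the same gene.

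**Figure D4:**
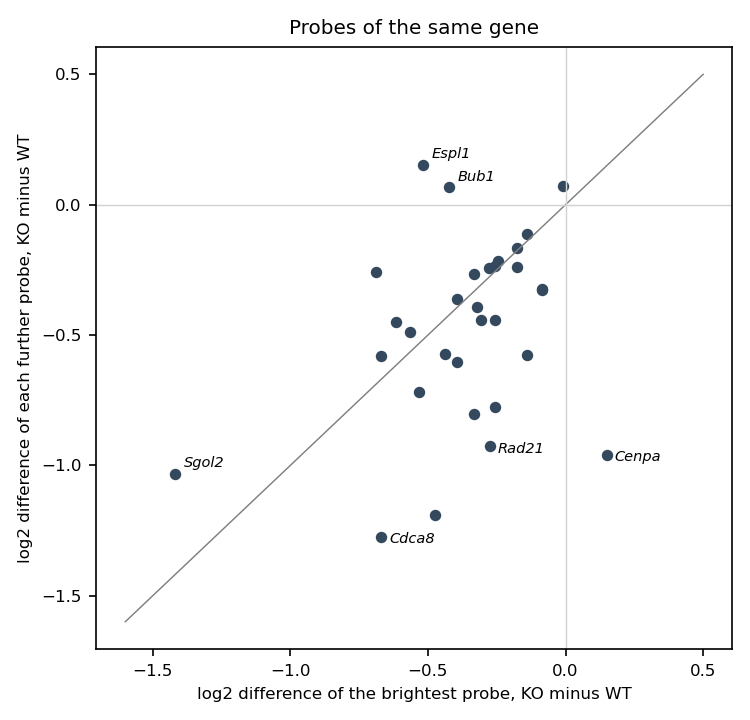
Each point is a further probe of a gene with several probes, with the log2 difference (KO minus WT) of the gene's brightest probe on the x axis and its own on the y axis, and the line marking equality. Of the 31 points 28 lie below 0 on the y axis, and Sgol2 lies low on both axes.

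Promoters and differences could be set side by side in 40 genes. The 19 genes with a cell cycle homology region match had a median log2 difference of -0.56, and 17 of them had both KO arrays below both WT arrays. The 21 without a match had a median of -0.31, also with 17. For the CCAAT box the medians were -0.47 in 26 genes with a match and -0.36 in 14 without. For the E2F motif the order was the other way, -0.25 in 5 genes with a match and -0.44 in 35 without. None of these differences was tested. A match to the cell cycle homology region did not go with a lower level in every gene: Cenpa and Cenpn hold one, and Sgol2 holds none in its 2 windows.

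Other genes of the same pathways were examined from lists chosen with earlier results of these data known, here and in the next paragraph. For comparison, 52.4% of all genes tested had lower means in KO and 30.5% had both KO arrays below both WT arrays. With the trend 4.13% of all genes were called lower and 5.45% higher. Of 31 further kinetochore genes 28 had lower means in KO, 25 had both KO arrays below both WT arrays, and 15 were called lower and 1 higher with the trend (median -0.38). Trip13, the ATPase that recycles MAD2, read 2.49 and 2.57 in KO and 3.27 and 3.28 in WT (-0.75 ± 0.08). Knl1, the scaffold on which BUB proteins dock, read 1.06 and 1.22 in KO and 1.87 and 1.90 in WT (-0.74 ± 0.10), and the kinesin Kif18a differed by -0.80 ± 0.11. They were named for having the smallest p of the list, in which 3 genes had higher means in KO. Condensin, the ring that compacts mitotic chromosomes, was lower in 8 of 8 genes with no overlap between genotypes (median -0.61, 7 called lower with the trend).

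Of 10 further cohesin genes 9 had lower means and 3 were called lower (median -0.20). The largest of these differences was in Stag3, a meiotic cohesin subunit, at -0.69 and -0.46 in KO and 0.82 and 0.70 in WT (-1.33 ± 0.12). The cohesin regulator Pds5a differed by -0.54 ± 0.08. Of the subunits and regulators of the anaphase-promoting complex, 10 of 16 had lower means, 7 had both KO arrays below both WT arrays, and 3 were called lower and 1 higher (median -0.08). Over all genes tested 52.4% had lower means and 30.5% had both KO arrays below both WT arrays. The 3 genes of the complex with the smallest p were its regulators Ube2c (-0.68 ± 0.09), Fzr1 (-0.43 ± 0.09) and Fbxo5 (-0.62 ± 0.16). Other mitotic genes had a median of -0.54, with lower means in 38 of 39, 28 called lower and 1 higher. DNA replication genes had a median of -0.22, with lower means in 37 of 40, 7 called lower and 1 higher. Both KO arrays lay below both WT arrays in 37 of the mitotic and 33 of the replication genes. Whether any of these lists differ from the 47 genes was not tested.

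**Figure D5:**
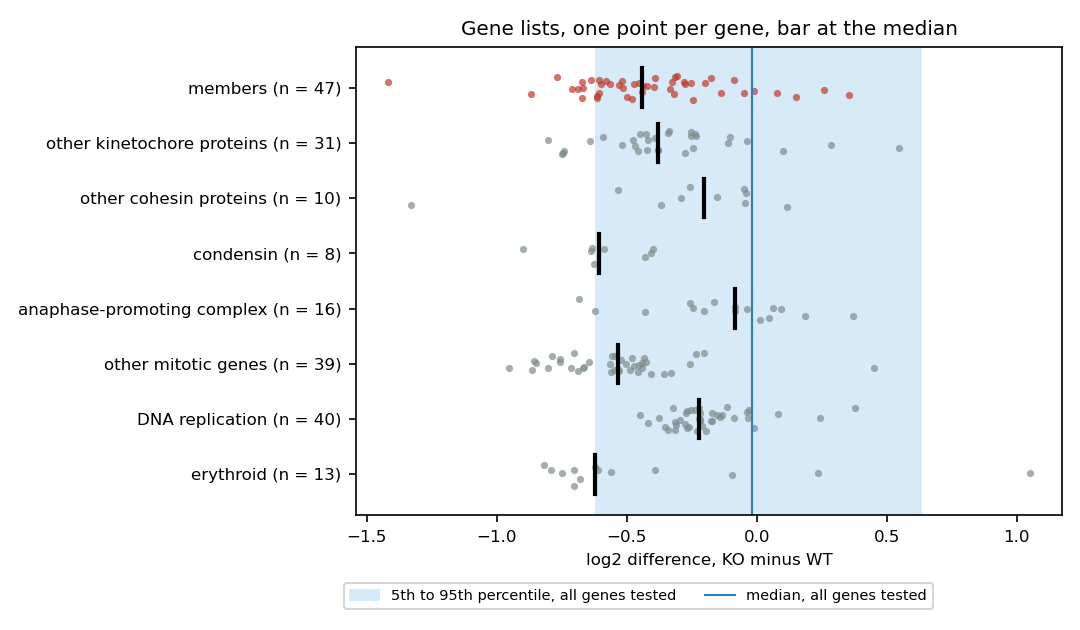
Each point is a gene, by list down the page, with its log2 difference (KO minus WT) on the x axis and a bar at the median of the list. The band spans the 5th to 95th percentile of all genes tested, -0.62 to 0.63. It shows the spread of single genes and is no measure for the medians, which are -0.44 for the 47 genes, -0.61 for condensin and -0.54 for other mitotic genes.

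The sort and its neighbours were checked with marker genes. All 4 arrays lay on 1 slide and in 1 scan. Between 59.6% and 62.9% of spots were well above background and 0 were saturated. The 75th percentile of processed signal was 361.4 and 422.1 in KO and 314.4 and 310.5 in WT, and the number of arrays limits the precision. Genes of the neutrophil azurophil granule (6 of 6) and specific granule (10 of 10) lists were well above background on all 4 arrays. These lists also hold genes of other proteins, among them Gfi1, S100a8 and S100a9. No probe for miR-223 was used, so the knockout was not checked from the arrays.

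Most erythroid markers, like most of the 47 genes, had lower means in KO. Of 21 on the array 13 were tested, 11 had lower means in KO and 5 were called lower with the trend (median -0.62). For comparison with each marker list, 52.4% of all genes tested had lower means in KO. With the trend 4.13% of all genes were called lower and 5.45% higher, and 7034 of 16978 overlapped between genotypes. The linear signal of the erythroid markers was summed, in units of the 75th percentile. It was 111.6 and 82.7 in KO replicates 1 and 2, and 152.6 and 148.3 in those of WT. Within KO single markers went either way. In normalised log2 signal, Alas2 read 0.12 and -0.45 in KO replicates 1 and 2, and Ahsp -2.24 and -1.87. The 8 erythroid markers not tested, among them Klf1, Gata1, Rhag and Sptb, were each well above background on at most 1 array. Epor, Slc4a1, Rhd, Alas2, Ahsp and Hemgn, among others, were well above it on all 4 arrays. Most of the erythroid sum was globin. Without Hba-a1 and Hbb-bt it was 4.94 and 4.5 in KO replicates 1 and 2, and 6.12 and 6.11 in those of WT. Genes of the azurophil granule list, which mark the promyelocyte, had higher means in KO in 6 of 6 (median 0.57, 4 called higher). Their sum was 1563 to 1787 in KO and 1391 to 1479 in WT. Genes of the specific granule list, which mark the myelocyte, had a median of -0.09 with 0 of 10 called in either direction. Their sum was 5218 to 5886 in KO and 5912 to 6543 in WT. Monocyte and macrophage markers had higher means in 16 of 19 genes (median 0.57, 11 called higher), with a sum of 771.2 to 854.4 in KO and 721.7 to 722.8 in WT. Eosinophil markers had higher means in 6 of 7 (sum 18.73 to 20.38 in KO and 11.47 to 13.42 in WT), with a median of 1.0 and 6 called higher. T cell markers had a median of -0.14 with 1 of 8 called lower, Cd3d, and 6 overlapping between genotypes. Their sum was 0.5875 to 0.7771 in KO and 1.219 to 1.268 in WT, and without Cd3d it overlapped, at 0.287 to 0.478 in KO and 0.399 to 0.467 in WT. Stem and progenitor markers had a median of 0.36 (2 of 9 called higher, sum 64.12 to 64.43 in KO and 48.14 to 50.44 in WT), late neutrophil markers one of 0.25 (3 of 11 called higher and 1 lower, sum 144.4 to 191.3 in KO and 143.8 to 145.0 in WT). Megakaryocyte markers had a median of 0.46 (1 of 5 called higher, sum 2.306 to 2.837 in KO and 1.409 to 1.61 in WT) and B lineage markers one of -0.27 (1 of 8 called higher, sum 8.928 to 11.63 in KO and 8.439 to 8.743 in WT). The part of these cells in the lower signals of the module was not tested.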

How the data were processed

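Total RNA of sorted immature granulocytes (2 miR-223 KO and 2 WT samples) was hybridised to 1-colour arrays. Per the file headers, the scanner images were quantified by Feature Extraction 10.5.1.1 of Agilent. The deposited intensity is its processed signal, which is background-subtracted and detrended but has no scaling across arrays, and probes carry mm9 positions. The authors' deposited table of log2 values, an alternative here, followed log2 processed signal within each array (r from 0.9999 to 1.000 over probes) with column medians of 4.68 to 4.69, and its centring is not stated. The genotype of each sample was taken from its title.

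Log2 processed signals had the 75th percentile of their array subtracted. After averaging of repeated spots, 25749 of 41174 probes exceeded background clearly on 2 or more of the 4 arrays, and the brightest of them stood for each gene (16978 genes). All 47 members passed. Names were updated through RefSeq (26933 probes by accession, 5570 current, 894 by synonym, 7777 kept as in the files). Genotypes were compared by limma 3.58.1 (R 4.3.3, Benjamini-Hochberg adjustment, 0.05, 1.83 prior degrees of freedom), with further probes fitted over all 25749 probes, and the procedure was tested on simulated data. Settings were changed in turn: variance prior, background correction, scaling, starting values, filter, probe rule, outlier spots, replicate block and arrays used. The members and lists were chosen with earlier results of these data known. Per-array values are given for up to 4 members per role with the smallest p and for 3 members higher in KO, and for others where a comparison turns on them, chosen after their values were seen. For other lists the 3 genes with the smallest p were eligible to be named, and for promoters the 4 members with the smallest p that hold the element.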

Additional observations from a re-analysis of the deposited data

How the results depend on the processing

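Calls at an adjusted p under 0.05 varied with the setting. Against 0 of 16978 genes and 0 of the 47, limma with an intensity trend called 1627 and 30, and normexp background correction fitted without control spots called 1885 and 23. Well-above-background signal on all 4 arrays gave 125 and 1, the authors' deposited values 61 and 1, median scaling 5 and 0 and quantile normalization 4 and 0. The median log2 difference of the 47 genes was -0.44, and between -0.50 and -0.36 under every alternative but normexp fitted on all spots, where it was -0.09 against -0.15 over all genes. There only 8 of the 47 had both KO arrays below both WT arrays and 1 was lower at an unadjusted p under 0.05. Also there, Cenpj (0.05), Nuf2 (0.02), Rad21 (0.23), Smc1a (0.25), Smc3 (0.10) and Stag1 (0.22) turned positive. The cause was not tested, but the same correction without control spots gave a median of -0.38. Median scaling moved the median over all genes to 0.06 and left the median of the 47 genes 0.43 below it. Of the 47 genes 43 had lower means in KO, against 28 with normexp on all spots, 42 with normexp without control spots, and 41 with median scaling, with the deposited values, without WT replicate 1 and without KO replicate 1. Leaving out 1 array at a time, the median lay between -0.50 and -0.41, the genes lower at an unadjusted p under 0.05 numbered 20 to 28 (5.77% to 9.98% of all genes), those with non-overlapping lower KO arrays 40 to 42 (39.5% to 43.9% of all genes, a larger share with 3 arrays), and 0 genes were called. Replicate numbers in the titles are not said to mark a shared animal or day, and same-numbered deviations correlated at 0.04. With the replicate number as a block 0 genes were called, and 29 of the 47 were lower at an unadjusted p under 0.05.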
